A study of Mus musculus with 22 samples.

Results

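The miRNA miR-375 was followed in round spermatids (RS), which are germ cells between meiosis and elongation, through the rows of the deposited small RNA count table named mmu-miR-375-3p and mmu-miR-375-5p. These are 2 of its 1966 mature miRNA names. The rule chose them by name, and asked for miR-375-5p only if it was detected. The 22 libraries came from RS of mice aged 75 to 85 days and fell into 2 experimental batches, numbered here by their labels (the methods number them the other way round), the first with 5 wild-type (WT) and 5 GRTH knock-out (KO) libraries and the second with 6 WT and 6 GRTH knock-in (KI) libraries. GRTH, also named DDX25, is a testis-specific RNA helicase that germ cells need to complete spermatid development. KO mice lack the GRTH protein, and KI mice carry a human mutant GRTH gene in place of their own and lack the phosphorylated form of the protein. RS were enriched by sedimentation through a BSA gradient and their purity was judged by DAPI staining. For the RS used for small RNA the paper states a lower limit of purity, without a value per library. The labels do not say whether each library came from a separate animal, so p-values measure only the spread between these libraries. Total counts per library ran from 559957 to 3239357, with 590 to 745 names detected, and the KO libraries were the shallowest (559957 to 881323). The miR-34 and miR-449 list that marks late germ cells summed to 199445 to 358095 counts per 1000000 (CPM) per library, and none of its 6 names was at 0.

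A miRNA is cut from a hairpin precursor as a short duplex, and mostly 1 of its arms, named 5p or 3p for its side of the hairpin, is kept by an Argonaute protein and pairs with target mRNAs through its seed, bases 2 to 8. miR-375 is best known from pancreatic islets, where it restrains insulin secretion and is needed for normal beta cell mass, and it is abundant in other endocrine cells such as those of the pituitary. It has also been described in germ cells of the testis.

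Mir375 lies on the minus strand of mouse chromosome 1 (GRCm38), where its hairpin spans chr1:74900658-74900721. It is 64 bases long with 67.2% G and C and sits in no annotated gene. Its nearest neighbour upstream on the same strand was Cfap65, a protein-coding gene for a cilia and flagella associated protein, which ended 1350 bases away. Cryba2, a crystallin gene, was the nearest downstream at 7515 bases, followed by Fev, a transcription factor gene of serotonin neurons, at 15239 bases. The hairpin is shown because counted reads came from only 1 of its sides, and the 5p arm as the side that gave none (RefSeq, GRCm38.p6, 5′ to 3′). Capitals mark the 5p arm in the hairpin and the seed in the arm.
Mir375 hairpin: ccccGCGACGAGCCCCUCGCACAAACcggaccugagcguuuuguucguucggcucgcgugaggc
miR-375-5p: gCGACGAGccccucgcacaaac
miR-375-3p occupies bases 40 to 61 of the hairpin (chr1:74900661-74900682) and miR-375-5p bases 5 to 26 (chr1:74900696-74900717). No other of the 1679 mature names in the RefSeq table had the seed CGACGAG. Each member had 1 locus in the count table. Within 1000000 bases on the chromosome the count table held 3 other names, of which miR-26b-5p was the one with many reads (53319 over all libraries), while miR-26b-3p had 16 and miR-1928 had 4.

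All counted reads of the hairpin were on its 3p side. miR-375-3p had 165761 counts over the 22 libraries, and miR-375-5p had 0 in every library. A count of 0 allows up to 3 counts, so the 5p arm could make up at most 0.00181% of the 3p count at this depth. This limit, like every counting error here, covers counting only, since reads and not molecules were counted. The 745 hairpins with both arms listed at a single locus gave the background for this bias. Of these, 85 had at least 10000 counts on their major arm, and the minor arm held a median of 1.05% of the counts of both arms together. Only miR-375 and let-7b, whose 5p arm had 37338 counts, had a minor arm at 0 among those 85. The next lowest were let-7g with 8 counts against 138517 and miR-669c with 3 against 20664. miR-375-5p therefore passed no filter on low counts and entered no comparison, and every value that follows is of miR-375-3p.

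**Figure D1:**
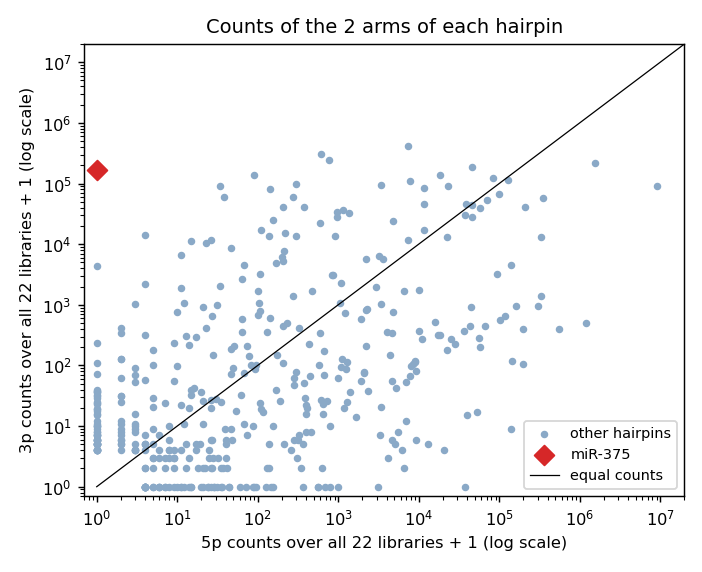
Counts of the 5p arm (x axis) and the 3p arm (y axis) of each hairpin, summed over 22 libraries with 1 added, both axes logarithmic. Each point is a hairpin, the line marks equal counts, and miR-375 (red) lies at the left edge with 165761 counts of 3p and 0 of 5p.

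miR-375-3p was a well-expressed miRNA of RS, near 0.4% of all counted reads and between the 25th and the 39th name by level in every library. In WT of batch 1 the 5 libraries held 3387, 3835, 3467, 3812 and 3545 reads of it, and in KO they held 3582, 3846, 2661, 2016 and 2351. In batch 2, where total counts were higher, WT held 8278 to 12136 reads (median 9509, n = 6) and KI 10139 to 15332 (median 12103, n = 6). The counting error of these values was 0.808% to 2.23%, below the spread between libraries in each group. Its share of counts was 0.370% ± 0.0225 (SD, n = 5) in WT and 0.406% ± 0.0420 (n = 5) in KO of batch 1, and 0.383% ± 0.0132 (n = 6) in WT and 0.491% ± 0.0206 (n = 6) in KI of batch 2.

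Among the names above 0, miR-375-3p ranked 36th by mean CPM in WT of batch 1, 35th in KO, 32nd in WT of batch 2 and 30th in KI. CPM here is per mature name and is not divided by length, since mature miRNAs are nearly equally long. In WT of batch 1 its 3850 CPM lay between miR-880-3p (3972 ± 365) and miR-34c-3p (3815 ± 570), and the libraries of all 3 overlapped. In WT of batch 2 it lay between miR-465a-3p (4389 ± 140), whose libraries were all above it, and miR-15b-5p (3810 ± 197), whose libraries overlapped with it. So in both batches of WT spermatids its neighbours in count per name included an X-linked miRNA of the testis. These were miR-880-3p in batch 1 and miR-465a-3p in batch 2. miR-465a-3p, miR-465b-3p and miR-465c-3p each had a log2 difference of −0.36 in KO. Whether these names share reads was not tested, so the place of miR-465a-3p holds for its own count only.

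**Figure D2:**
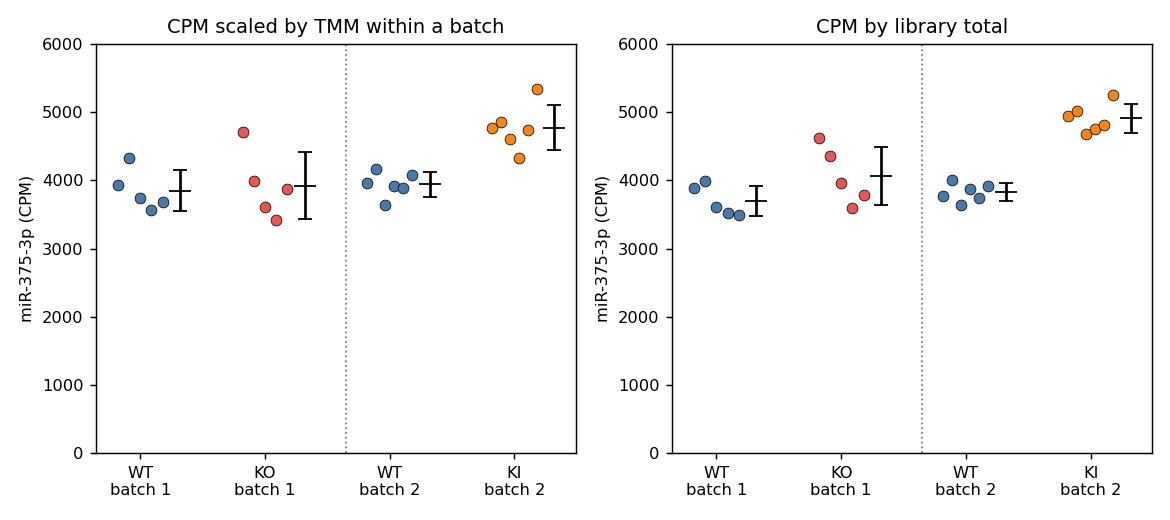
CPM of miR-375-3p in each of 22 libraries by group, scaled by TMM within a batch (left) and by library total (right). Each point is a library, the bars give mean ± SD, and the dotted line parts the batches. All 6 KI libraries lie above all 6 WT libraries of batch 2 in both panels, and the KO and WT libraries of batch 1 overlap. The share of all miRNAs without overlap was counted with TMM only.

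The first comparison asked whether miR-375-3p changed in RS that lack GRTH. It did not pass the test in KO. With TMM scaling, which sets libraries to a common level through most miRNAs, the 5 WT libraries of batch 1 held 3929, 4328, 3743, 3572 and 3681 CPM. The 5 KO libraries held 4715, 3996, 3617, 3416 and 3879 CPM. The groups overlapped, with 1 of 5 KO libraries above every WT library and 1 below every WT library. Among the 334 miRNAs tested the groups did not overlap for 20.1%, with KO higher in 8.68% and lower in 11.4%. Mean levels were 3850 ± 297 (SD, n = 5) in WT and 3925 ± 496 (n = 5) in KO. The difference was 0.03 on the log2 scale (SE 0.09, 95% interval −0.17 to 0.22, edgeR adjusted p = 0.828). The interval holds both a small fall and a small rise.

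The sign of that value was not stable. With all libraries kept but no filter on low counts, the difference was −0.024 (edgeR adjusted p = 0.919). Without KO replicate 1, at 4715 CPM the highest of its batch, the difference was −0.05 (edgeR adjusted p = 0.62). Scaled by library total alone the levels were 3700 ± 225 CPM in WT and 4065 ± 420 in KO (n = 5 each), and 2 of 5 KO libraries lay above every WT library. On this scale the difference of mean log2(CPM + 1) was 0.13 (two-sided exact permutation p = 0.151, adjusted p = 0.151 over both mutants, where 0.00794 is the smallest p that 5 against 5 allows). Every KO library was above the WT library of the same number on this scale, and a paired sign-flip test passed the threshold (exact p = 0.0625, the smallest that 5 pairs allow), but the numbers were not shown to pair the libraries. Of 334 miRNAs tested in KO, 140 (41.9%) passed an edgeR adjusted p under 0.1, the threshold used throughout, with 71 higher and 69 lower. By library total this split moved to 101 higher and 44 lower. In the order of absolute change miR-375-3p was 320th of the 334, where the median absolute change was 0.31.

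The second comparison asked the same of RS that have GRTH but lack its phosphorylated form. miR-375-3p rose in KI. The 6 WT libraries of batch 2 held 3963, 4173, 3642, 3916, 3893 and 4073 CPM (median 3940), and the 6 KI libraries held 4764, 4863, 4607, 4327, 4743 and 5341 CPM (median 4753). Every KI library was above every WT library of its batch, on this scale a pattern that 5.43% of the 387 tested miRNAs showed in this direction and 9.04% in the other (14.5% in all). Mean levels were 3943 ± 181 (SD, n = 6) in WT and 4774 ± 334 (n = 6) in KI. The rise was 0.28 on the log2 scale (SE 0.05, 95% interval 0.16 to 0.39), which is 1.21-fold, with an edgeR adjusted p = 0.00235.

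By library total the KI libraries stood at 4908 ± 206 CPM against 3826 ± 132 in WT (n = 6 each), again without overlap. The share of all miRNAs without overlap was not counted on this scale. With TMM factors from all 4 groups in 1 fit, WT replicate 2 was above KI replicate 4, so the separation of the groups does not hold on every scale. By library total the difference of mean log2(CPM + 1) was 0.36 (two-sided exact permutation p = 0.00216, adjusted p = 0.00433 over both mutants). The smallest p that 6 against 6 allows is 0.00216. Library total scaling moved the median of all miRNAs to 0.09 in KI and to 0.13 in KO, so 0.36 is to be read against 0.09. RS were measured in bulk, so more miR-375-3p per cell and a larger share of cells that carry it cannot be told apart.

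The rise in KI was well resolved rather than large. Of 387 miRNAs tested in KI, 147 (38%) passed the threshold, 70 (18.1%) higher and 77 (19.9%) lower, and by library total 96 were higher and 53 lower. miR-375-3p was 29th by p and 178th by absolute change, close to the median absolute change of 0.25. Its biological coefficient of variation, edgeR's measure of the spread between libraries beyond counting, was 0.0951 in batch 2 against a median of 0.151, and 26 of the 387 miRNAs had a lower one. In batch 1 it was 0.119 against 0.152.

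**Figure D3:**
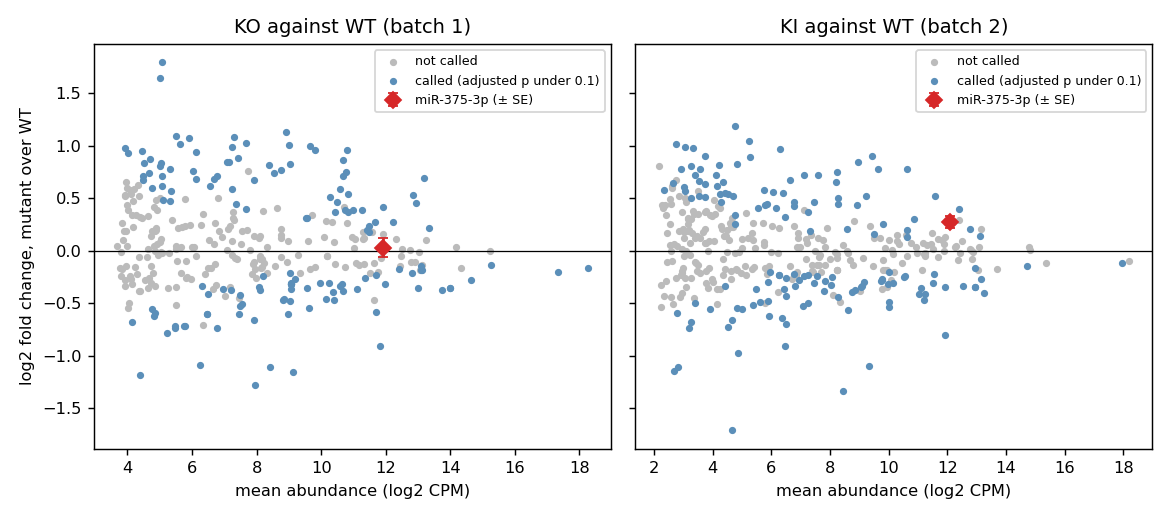
Log2 fold change (y axis) against mean abundance in log2 CPM (x axis) for the 334 miRNAs tested in KO (left) and the 387 tested in KI (right). Blue points passed an edgeR adjusted p under 0.1, grey points did not, and the red diamond with its SE is miR-375-3p, at 0.03 in KO and 0.28 in KI.

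The KO and KI effects, each taken against WT of its own batch, were then compared in 1 fit. The KO effect minus the KI effect was −0.25 on the log2 scale (SE 0.12, 95% interval −0.49 to −0.01), and it did not pass the test (edgeR adjusted p = 0.298 over 421 miRNAs). A difference between the mutants was therefore not shown with edgeR, although the call was made in KI and not in KO. edgeR called 0 of the 421 (0%) in this comparison, with 67 at an unadjusted p under 0.05. DESeq2 called 21 of the 247 miRNAs to which it gave an adjusted p. It gave miR-375-3p a difference of −0.31 (DESeq2 adjusted p = 0.0975 over those 247), just past the threshold. Mutant and batch are joined in this design, and each effect rests on its own WT libraries.

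The WT groups of the batches share a genotype, and whether they differed in miR-375-3p depended on the scale. In a fit of the 11 WT libraries with TMM scaling, batch 1 held 3279 ± 379 CPM (2758 to 3794, n = 5) and batch 2 held 4253 ± 264 (3898 to 4681, n = 6), without overlap on this scale. miR-375-3p was higher in batch 2 by 0.38 on the log2 scale (SE 0.08, 95% interval 0.21 to 0.54, edgeR adjusted p = 9.70e-04), and 56.7% of 383 miRNAs passed the threshold, 26.9% higher and 29.8% lower. By library total the difference was 0.05 (SE 0.05, edgeR adjusted p = 0.437), while the median of all miRNAs stood at −0.34. The scaling factors lay at 1.05 to 1.28 in batch 1 and at 0.856 to 0.933 in batch 2. The WT groups overlapped by library total, and also with TMM set within each batch. The share of all miRNAs without overlap was not counted between the WT groups. Between these WT groups miR-375-3p thus moved by more than the KI rise under TMM and by less by library total.

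**Figure D4:**
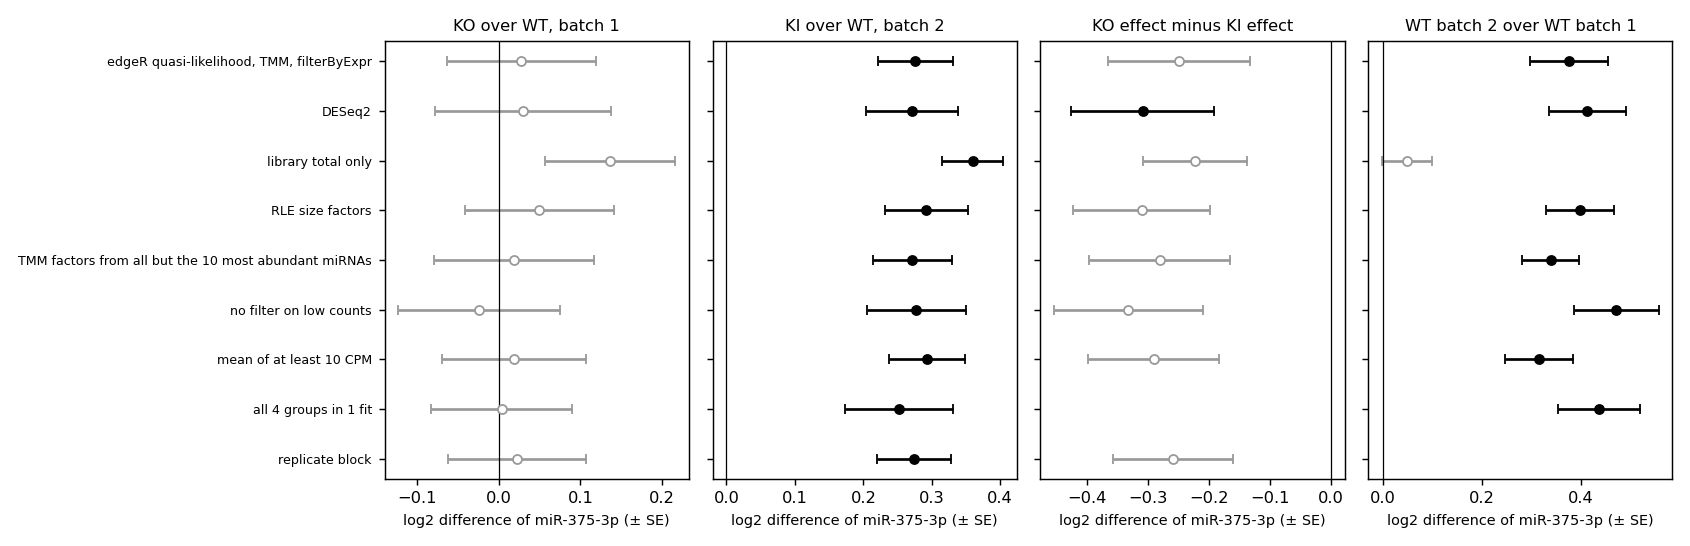
Log2 difference of miR-375-3p (x axis, ± SE) in 4 comparisons under the main fit (top) and the alternatives that could be run in each. Filled black points passed an adjusted p under 0.1 and open grey points did not. KI over WT was called under every setting shown, and KO over WT under none.

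Of 6 other miRNAs known from endocrine or nerve cells, miR-7b-5p and miR-124-3p rose in KI as miR-375-3p did, and the other 4 did not pass (median 0.05, against 0.00 for all miRNAs, of which 18.1% rose). In KO 5 were tested, of which 1 rose and 1 fell (median −0.21, against 0.01 for all miRNAs), which are near the shares of all miRNAs that rose (21.3%) and fell (20.7%). miR-7a-5p, an islet and pituitary miRNA and the most abundant of the list, was 7124 ± 316 CPM in WT of batch 2 and 7160 ± 617 in KI (n = 6 each, log2 difference 0.01, edgeR adjusted p = 0.934). In KO its log2 difference was −0.11 (edgeR adjusted p = 0.369). miR-9-5p of nerve and islet cells, the nearest of the list to miR-375-3p in level in batch 2, was 3371 ± 191 CPM in WT and 3238 ± 315 in KI (−0.06, edgeR adjusted p = 0.530). miR-7b-5p, which shares the seed of miR-7a-5p, rose in both mutants from low levels. In KO its mean was 32.2 ± 10.2 CPM against 17.3 ± 4.86 in WT (log2 difference 0.88, SE 0.28, edgeR adjusted p = 0.0304). The KI mean was 36.7 ± 5.38 CPM against 15.9 ± 3.65 (log2 difference 1.19, SE 0.16, edgeR adjusted p = 1.03e-04).

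miR-124-3p, a miRNA of neurons, rose in KI by 0.46 on the log2 scale (SE 0.13, edgeR adjusted p = 0.0182) and stood at −0.34 in KO without passing. miR-184-3p fell in KO, where it held 2484 ± 1100 CPM against 4672 ± 371 in WT (log2 difference −0.91, SE 0.29, edgeR adjusted p = 0.0327). It stood at −0.35 in KI without passing. The summed level of the endocrine list was 14231 to 16176 CPM in WT of batch 1 and 11334 to 13683 in KO, without overlap. Of single miRNAs tested in KO, 20.1% did not overlap. The mean sum was 15392 CPM in WT and 12218 in KO, and miR-184-3p was the only tested name of the list called lower. In batch 2 the sum was 10351 to 12912 CPM in WT and 9855 to 13099 in KI, with overlap.

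Members of the list of epithelial cells, which in other organs are a known source of miR-375, were low. Of 7 listed, 6 were tested in each mutant. In KO 2 fell and in KI 3 fell, against 20.7% and 19.9% of all miRNAs. None of the 6 rose in either, where 21.3% and 18.1% of all miRNAs did. The medians of the list were −0.01 in KO and −0.23 in KI, against 0.01 and 0.00 for all miRNAs. Whether 6 names depart from these shares was not tested. The members that fell were miR-141-3p (log2 difference −0.74 in KO and −0.30 in KI), miR-200c-3p (−0.41 and −0.49) and, in KI, miR-203-3p (−0.56). The list summed to 875 to 1220 CPM in WT of batch 2 and to 789 to 940 in KI, so the whole list held less than miR-375-3p alone in every library.

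Some markers of other cells moved in the same direction as miR-375-3p in KI, where 18.1% of all miRNAs rose. The blood cell list summed to 2692 to 3440 CPM in WT of batch 2 and 3375 to 5312 in KI, and 5 of its 6 tested members rose (median 0.54), among them miR-223-3p of myeloid cells (0.97), miR-150-5p of lymphocytes (0.90) and miR-155-5p of activated leukocytes (0.56). The other, miR-451a of red cells, stood at 0.11 (edgeR adjusted p = 0.780). The stroma and muscle list summed to 1645 to 2700 CPM and 2289 to 5093 CPM, and 4 of its 7 tested members rose (median 0.52), led by miR-10b-5p (0.90), miR-199a-3p (0.78) and miR-143-3p of smooth muscle (0.58). Its other members stood at −0.49 (miR-1a-3p), −0.49 (miR-133a-3p) and −0.04 (miR-126a-3p) without passing. In KO, where miR-375-3p did not pass, 3 of 6 blood names and 5 of 6 stroma and muscle names rose (medians 0.40 and 0.98, where 21.3% of all miRNAs rose), led by miR-150-5p (1.64) and by miR-1a-3p of striated muscle (1.79). Both were low and uneven between libraries. miR-150-5p was 45.4 ± 23.5 CPM in KO against 14.4 ± 11.7 in WT, and miR-1a-3p 49.6 ± 53.4 against 14.3 ± 7.92. miR-144-3p of red cells had 1 count in all, and no listed name was at 0 in every library. The part of these cells in the KI value of miR-375-3p was not tested.

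Of the lists for germ cells and their neighbours, the X-linked miRNAs of meiotic germ cells were lower in both mutants, in 12 of 16 in KO and 13 of 16 in KI (medians −0.32 and −0.31), led by miR-880-3p in KO (−0.58) and miR-470-5p in KI (−0.54). Of all miRNAs 20.7% were lower in KO and 19.9% in KI, and 21.3% and 18.1% were higher, and the other germ cell counts, from 2 to 6 names a list, are to be read against these shares. Library total scaling left 6 lower and 1 higher in KO and 10 lower in KI. Of 6 late germ cell names, miR-449c-5p rose (0.82) and miR-34b-5p (−0.27) and miR-34c-5p (−0.21) fell in KO, and miR-34c-5p fell in KI (−0.11), while library total scaling gave 2 higher and 0 lower in each mutant. Of 4 spermatogonial names tested, miR-146a-5p rose in KO (1.13) and KI (0.75) and miR-221-3p rose in KO (0.95), and by library total all 4 were higher in KI. Both names of miR-202, a Sertoli cell hairpin, fell in KI and neither passed in KO. Their sum was 72.3 to 94.3 CPM in KI against 98.3 to 170 CPM in WT, without overlap. Of single miRNAs tested in KI, 9.04% were lower without overlap. The X-linked neighbours of miR-375-3p in level moved the other way from it in KI, where miR-880-3p was at −0.41 and miR-465a-3p at −0.34 (edgeR adjusted p = 0.00162 and 7.31e-05).

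The miRNAs whose pattern across libraries was most like that of miR-375-3p were taken by Spearman's rho of log2 CPM within each batch, over 10 libraries in batch 1 and 12 in batch 2. These values describe libraries that share batch, depth and genotype differences, and the median over 420 miRNAs was 0.02. The highest mean was that of miR-130b-5p, with rho 0.733 in batch 1 and 0.783 in batch 2. miR-142a-3p (0.758 and 0.748) and miR-142a-5p (0.600 and 0.706), the arms of 1 hairpin of blood cells, came next, followed by miR-30e-3p (0.479 and 0.776) and miR-497a-5p (0.491 and 0.755). 24 of the 420 had a mean above 0.5. The likeness holds within batches only. Over all 22 libraries together rho was −0.529 for miR-130b-5p, −0.111 for miR-142a-3p and 0.197 for miR-30e-3p. For miR-142a-5p it was 0.892 and for miR-497a-5p 0.612.

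All 5 had the same calls as miR-375-3p, none of them passing in KO and each rising in KI, and since rho was taken over these same libraries the calls were not independent of it. In KI the log2 differences were 0.40 for miR-130b-5p, 0.52 for miR-142a-3p, 0.44 for miR-142a-5p, 0.44 for miR-30e-3p and 0.26 for miR-497a-5p, with edgeR adjusted p from 0.00175 to 0.0301. In KO they were −0.08, 0.11, 0.12, 0.21 and 0.13. miR-142a-3p stood at 2504 ± 226 CPM in WT of batch 2 and 3600 ± 580 in KI, and at 4851 ± 497 in WT of batch 1 and 5252 ± 714 in KO. None of the 5 lies on chromosome 1.

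**Figure D5:**
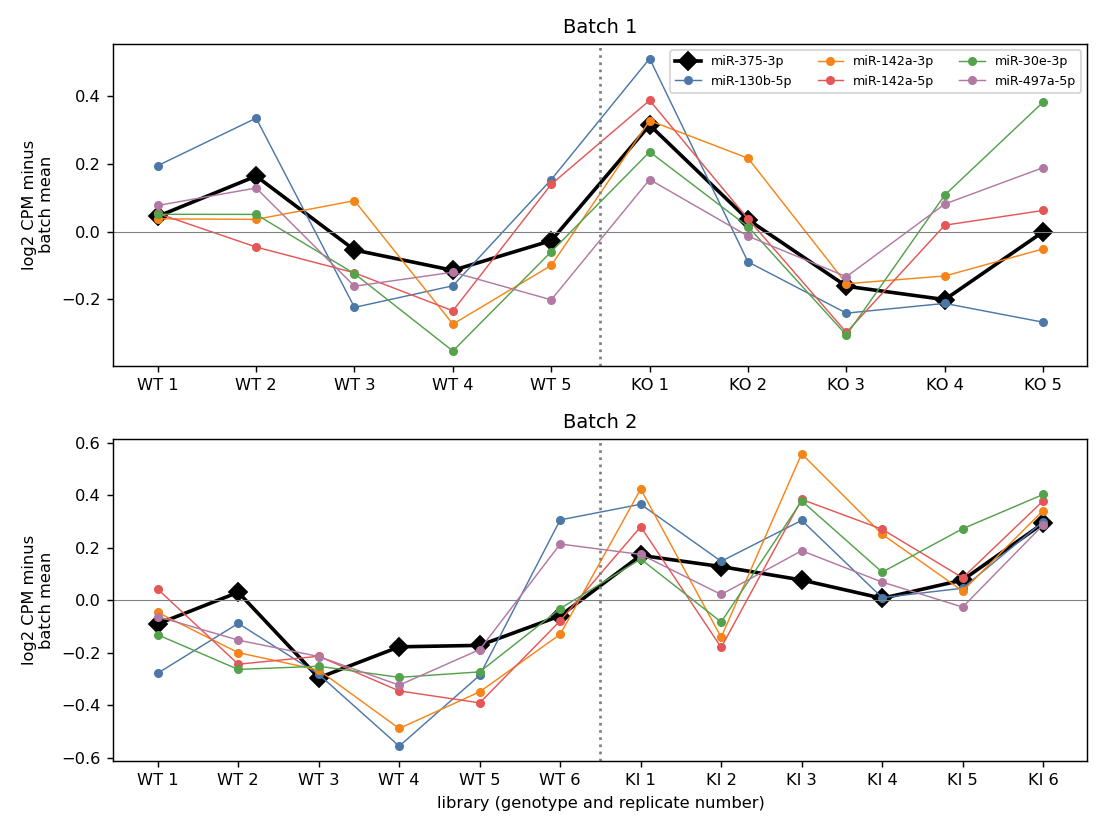
Log2 CPM minus the batch mean (y axis, TMM over all 4 groups) in each library (x axis) of batch 1 (top) and batch 2 (bottom) for miR-375-3p (black diamonds) and the 5 miRNAs with the highest mean rho. Lines only guide the eye and the dotted line parts WT from mutant. KO replicate 1 is the highest library of miR-375-3p in batch 1, and in batch 2 WT replicate 2 is the only WT library above a KI library.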

How the data were processed

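Small RNA libraries of mouse RS were analysed from the raw read counts that the authors deposited, 1 column per library and 1 row per mature miRNA name. Per the methods, the file header and the submitters' processing notes, reads were trimmed with cutadapt 3.4 (FastQC 0.11.9), aligned to GRCm38 (mm10) with Bowtie2 2.4.2 in local mode with up to 100 alignments per read, handled with SAMtools 1.12 and counted by strand with featureCounts (Subread 2.0.1) against miRBase. The effect of multiple alignments on the counts was not tested, and each member has 1 locus. All 22 columns were mapped to samples by name (0 left unused), and no pair of libraries was identical.

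Groups and batches came from the labels. KO and KI were each tested against WT of the same batch with edgeR 4.0.16 (R 4.3.3), quasi-likelihood, TMM and filterByExpr, with Benjamini-Hochberg adjustment over all miRNAs that passed the filter. The study used DESeq2, so DESeq2 1.42.0 was an alternative. Shares were tested by exact permutation (scipy 1.17.1, pseudocount 1). Simulated counts with known changes were recovered at log2 0.4 in 56% (KO) and 53% (KI) of changed miRNAs and at log2 1 in 92% and 97%. Of unchanged miRNAs 4.58% and 3.23% were called. The changed miRNAs were drawn from all levels, so these rates do not tell how often a change in miR-375-3p would be called. Other settings were library total, RLE factors, TMM without the 10 most abundant names, no filter, a mean of 10 CPM, an adjusted p under 0.05, all groups in 1 fit, a replicate block and leaving out each library.

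Named miRNAs were the members, the 5 with the highest mean Spearman's rho (log2 CPM with a prior count of 2), neighbours in level, other names within 1000000 bases and up to 3 called members per list with the largest change. Members and the 8 marker lists were chosen with earlier results of these data known.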

Additional observations from a re-analysis of the deposited data

Results flagged for a closer look

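No library of miR-375-3p stood apart from its group. Among 24 pairs of a measure and a group that were screened for 1 library far from the others (Dixon's test, where chance gives about 1.2), miR-130b-5p in KO was the only case. KO replicate 1 held 230 CPM of it against 137 to 156 in the other 4 KO libraries, a gap of 0.752 of the group's range on a log2 scale. It is also the KO library with the most miR-375-3p.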

How the results depend on the processing

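The KI rise of miR-375-3p kept its direction and its call under all 9 other settings (log2 0.25 to 0.36, edgeR or DESeq2 adjusted p 5.96e-05 to 0.0209) and without each library (0.24 to 0.32). In edgeR and DESeq2 KO passed under none. It was 0.00 to 0.14 in 8 settings, −0.024 with no filter on low counts (adjusted p = 0.919) and −0.053 to 0.070 without each library, negative only without KO replicate 1. KO minus KI was −0.33 to −0.22 with edgeR and −0.36 to −0.19 without each library, and passed only with DESeq2 (−0.31). Its number of calls went from 0 to 21 with DESeq2 (of 247 with an adjusted p), 25 with the replicate block, 26 without KI replicate 2 and 1 without WT replicate 1 of batch 2. WT of batch 2 over batch 1 lost its call by library total (0.048) and was 0.31 to 0.43 without each library. In the permutation test by library total KI was 0.34 to 0.37 and KO 0.084 to 0.17 without each library, with KO passing without WT replicate 2 (0.16, exact adjusted p = 0.0952) and without KO replicate 4 (0.17, 0.0794). The cause of these changes was not tested. Libraries with the same number did not deviate together in every pair (mean r 0.03 in batch 1 and 0.19 in batch 2, over 0.1 in 2 of 5 and 3 of 6 pairs, each sample matching its own number best in 1 of 5 and 3 of 6). With the replicate block KO was 0.02, KI 0.27 and KO minus KI −0.26, with no change of call for miR-375-3p. A paired sign-flip test by library total gave KO 0.13 (exact p = 0.0625, the smallest that 5 pairs allow), which passes the threshold that the unpaired test missed. Of the list counts in KO, late germ names lower went from 2 to 0 and spermatogonial names higher from 2 to 1 with DESeq2 (also 1 with the block), Sertoli names lower from 0 to 1 with DESeq2, no filter or the block, endocrine names lower from 1 to 2 with no filter, and epithelial names lower from 2 to 1 by library total. In KI, late germ names lower went from 1 to 0 with no filter and 2 with the block, and stroma names lower from 0 to 2 with the block. Depth limits batch 1 most, where 2016 to 3846 counts stand behind each value.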
